A study of Mus musculus with 32 samples.

Results

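The ephrin, semaphorin and axon guidance set held 64 of 21887 protein-coding mouse genes. They were taken by symbol: Eph receptors (13 genes), ephrins (8), semaphorins (20), plexins (8), Robo receptors (4), Slit ligands (3), Unc5 receptors (4) and netrins (4), leaving out 2 members of these families by the same rule. Histone marks on them were mapped by CUT&Tag, in which an antibody brings a transposase to a mark so that the DNA beside it is cut out and sequenced. The cells were bone-marrow cells immortalised with HoxB8, grown with stem cell factor and 0.6 µM estrogen and sampled 48 h after estrogen had been taken away. The marks were H3K27me3, H2AK119ub and H3K4me1, each in 10 libraries. Of these, 2 came from double cells, which carried the Asxl1 guide (sgRNA Asxl1 B2) and the pMICH vector with CSF3R-T618I, a G-CSF receptor with an activating mutation. A further 3 came from cells with that guide and pMICH-Empty (Asxl1 guide cells), and 3 from cells with a non-targeting guide and pMICH-CSF3R-T618I (CSF3R cells). The last 2 came from control cells with the non-targeting guide and pMICH-Empty. The guide was meant to truncate Asxl1, and these marks give no readout of the edit or of the receptor's level. All cells had been immortalised with HoxB8 and sampled 48 h after estrogen was taken away, so each comparison holds within that shared background. Nothing in the labels says whether libraries of a genotype came from separate cultures. The p-values therefore measure the spread between these libraries only, which may be technical.

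Ephrins on a cell bind Eph receptors, which are receptor tyrosine kinases, on its neighbour, while most semaphorins bind plexins, Slits bind Robo receptors and netrins bind Unc5 receptors. These pairs are known for steering growing axons, and several of them also act in blood cells, where class 4 semaphorins and Sema7a take part in immune signalling. H3K27me3 and H2AK119ub are laid down by the Polycomb repressive complexes, commonly over CpG-rich promoters of genes that are silent in the cell, and H3K4me1 marks enhancers and the flanks of promoters. Asxl1 is a partner of Bap1, the enzyme that takes ubiquitin off histone H2A.

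The promoters below run from 250 bases before to 50 after each RefSeq start (GRCm38.p6) and show how their CG content differs. The first 4 belong to the members with the broadest H3K27me3 among those with a promoter in the RefSeq table, and all lay on H3K27me3 and H2AK119ub peaks in at least 9 of 10 libraries. The last pair, chosen after their values were seen, are from members whose H3K4me1 is described below. H2AK119ub peaks lay on the Sema3g promoter in 4 libraries and H3K4me1 in none. Capitals mark every CG.
Efna2, chr10:80179232-80179531, plus strand: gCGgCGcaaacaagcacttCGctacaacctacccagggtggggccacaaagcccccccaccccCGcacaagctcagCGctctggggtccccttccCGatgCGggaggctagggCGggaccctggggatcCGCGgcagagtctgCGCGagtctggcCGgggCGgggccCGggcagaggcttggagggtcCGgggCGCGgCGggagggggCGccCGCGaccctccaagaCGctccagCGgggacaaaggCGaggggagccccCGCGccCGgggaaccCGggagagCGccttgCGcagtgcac
Efna3, chr3:89322890-89323189, minus strand: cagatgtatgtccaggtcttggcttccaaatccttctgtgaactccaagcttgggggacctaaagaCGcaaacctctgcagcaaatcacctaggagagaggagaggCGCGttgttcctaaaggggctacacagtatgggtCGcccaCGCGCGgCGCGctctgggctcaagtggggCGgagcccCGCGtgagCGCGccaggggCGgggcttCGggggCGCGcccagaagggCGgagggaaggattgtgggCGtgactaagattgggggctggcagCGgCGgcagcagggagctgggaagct
Plxnb2, chr15:89180739-89181038, minus strand: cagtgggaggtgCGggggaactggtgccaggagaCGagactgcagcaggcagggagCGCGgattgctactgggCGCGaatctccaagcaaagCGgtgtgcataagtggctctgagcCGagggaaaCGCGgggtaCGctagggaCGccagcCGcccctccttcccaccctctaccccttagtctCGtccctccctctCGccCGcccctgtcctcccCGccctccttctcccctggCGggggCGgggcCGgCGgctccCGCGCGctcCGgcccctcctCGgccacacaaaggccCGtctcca
Sema7a, chr9:57939862-57940161, plus strand: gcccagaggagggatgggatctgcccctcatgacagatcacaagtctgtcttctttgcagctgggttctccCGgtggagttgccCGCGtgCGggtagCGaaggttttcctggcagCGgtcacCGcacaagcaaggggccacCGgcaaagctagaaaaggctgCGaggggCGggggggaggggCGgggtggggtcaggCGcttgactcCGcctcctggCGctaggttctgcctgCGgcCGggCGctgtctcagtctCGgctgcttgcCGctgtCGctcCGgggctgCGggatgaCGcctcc
Sema3g, chr14:31217623-31217922, plus strand: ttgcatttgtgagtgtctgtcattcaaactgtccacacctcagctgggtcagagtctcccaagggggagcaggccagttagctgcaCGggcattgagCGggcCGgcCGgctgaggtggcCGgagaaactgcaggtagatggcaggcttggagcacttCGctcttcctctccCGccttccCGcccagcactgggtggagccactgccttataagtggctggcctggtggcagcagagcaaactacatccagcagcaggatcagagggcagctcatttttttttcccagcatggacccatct
Sema4a, chr3:88461133-88461432, minus strand: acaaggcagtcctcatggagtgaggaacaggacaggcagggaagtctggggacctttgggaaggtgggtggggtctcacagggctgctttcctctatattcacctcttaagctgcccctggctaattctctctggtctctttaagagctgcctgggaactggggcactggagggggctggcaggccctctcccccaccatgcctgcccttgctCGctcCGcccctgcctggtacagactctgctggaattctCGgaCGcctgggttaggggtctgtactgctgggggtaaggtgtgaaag
The promoters of Efna2, Efna3, Plxnb2 and Sema7a held 31, 22, 27 and 23 CG. Those of Sema3g and Sema4a held 8 and 4. As many CG as at Efna2 were found in 13.5% of the 17492 promoters of all genes in the table, and as many as at Sema4a in 75.0%. Over the 55 members with an entry the median was 21 CG, against 13 over all genes. The 32 members with an H3K27me3 peak on the promoter in at least 5 libraries had a median of 24.5 CG, and the 12 with none in any library had 8.5. Over all genes the same medians were 21 (2230 genes) and 11 (13939 genes). For H2AK119ub the medians were 24.5 CG in 32 members with a peak in at least 5 libraries and 15 in the 15 with none, closer together than for H3K27me3, and 22 and 10 over all genes. H3K4me1 peaks lay on the promoter itself only at Sema4a and Sema4d, in all 10 libraries of each, and Sema4d had 2 CG there.

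**Figure D1:**
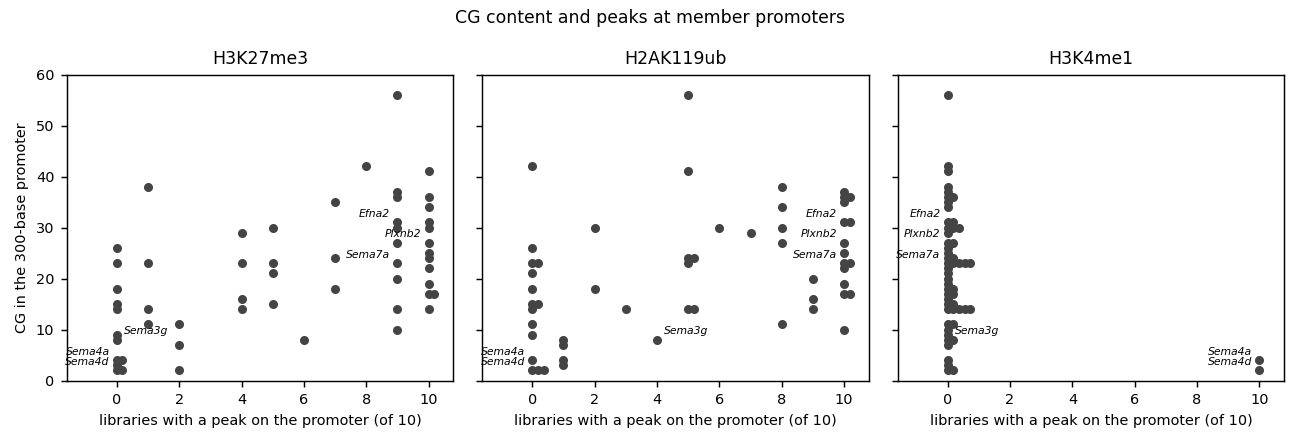
Number of CG in the 300-base promoter (vertical axis) against the number of libraries, of 10, with a peak of each mark on it (horizontal axis), for the 55 members with a RefSeq promoter; equal values are drawn side by side. Promoters with a peak in at least 5 libraries have a median of 24.5 CG for H3K27me3 and for H2AK119ub, while Sema4a and Sema4d, with 4 and 2 CG, are the members at 10 libraries for H3K4me1.

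The deposited peak lists gave positions and no heights, so each gene was measured by the fraction of its length plus 5 kb on each side that lay in peaks. The number of peaks in a list was 6071 to 45373 in H3K27me3 libraries, 10866 to 33969 in H2AK119ub and 14479 to 21185 in H3K4me1 libraries. Covered length ran from 4.73 to 53.0 Mb for H3K27me3, and both ends of that range were Asxl1 guide libraries. Replicate 2 of that genotype, the longest list, stood apart from the other two, which covered 4.73 and 12.4 Mb. CSF3R lists covered 31.3, 34.1 and 42.2 Mb for H3K27me3, against 19.2 and 14.2 Mb in double and 15.9 and 22.7 Mb in control cells. The Asxl1 guide lists for H2AK119ub covered 11.8, 13.4 and 16.7 Mb. Those of double cells covered 39.1 and 22.6 Mb, and those of control cells 21.2 and 19.9 Mb. List length thus differed by genotype in several comparisons below, and the fractions were not scaled for it. Sequencing depth is unknown, so a wider mark and a deeper library cannot be told apart. H3K4me1 lay on 10 of 10 myeloid progenitor marker genes, with a median fraction of 0.249, and 9 of them (all but Kit, mean 0.0149) had a mean of at least 0.02. Among markers of other cell types, no peak touched Cd3e, Pax5, Hba-a1, Cdh5, Tek or Snap25. Il7r (lymphoid), Gata1 and Klf1 (erythroid) and Rbfox3 (neuronal) had means of 0.00222, 0.0031, 0.0116 and 0.000371, and neuronal Tubb3 had 0.0823. In such bulk libraries, fewer cells with a mark and less mark per cell cannot be told apart.

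Polycomb marks were on most of these genes and H3K4me1 on a minority. A peak of H3K27me3 touched 58 of the 64 members in at least 1 library, as did a peak of H2AK119ub, against 39.6% and 54.1% of all protein-coding genes. H3K4me1 touched 26 members, or 40.6%, close to the 37.4% of all genes. A touch by any peak favours long genes, and shares of covered bases differed from these. H3K4me1 peaks filled 0.538 to 1.05% of the member windows per library, against 1.67 to 2.88% of all gene windows. H3K27me3 filled 0.469 to 3.89%, against 0.365 to 3.09%, and H2AK119ub 1.39 to 3.15%, against 0.850 to 2.58%. A mean fraction of at least 0.02 over the 10 libraries, the level needed for testing, was reached by 36 members for H3K27me3 (19.4% of all genes), 34 for H2AK119ub (21.2%) and 14 for H3K4me1 (20.1%). No member was free of all 3 marks in every library, but 18 stayed under that level in each mark, among them Robo1, Robo2, Slit2, Slit3, Epha3, Epha4, Epha5 and Epha6. Since the level is a share of the gene, it favours short genes: members tested for H3K27me3 had a median length of 25.2 kb, and the others 300 kb.

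The families differed in which mark they carried. All 13 Eph receptors and all 8 ephrins had an H3K27me3 peak in some library, and 7 of each reached the testing level. The 4 netrins all reached it. None of the Eph, Robo, Slit or Unc5 genes reached the testing level for H3K4me1. The semaphorins did so for 9 of 20 genes, including 5 of the 6 of class 4, which are membrane-bound and in part active in immune cells (all but Sema4g). Of these 5, Sema4c averaged 0.0283 with peaks in 7 libraries, and IgG peaks cover 0.107 of its window. Sema4f had no H3K4me1 in control cells and reached the testing level only through the libraries with CSF3R T618I. Sema4a, Sema4d, Efna5 and Plxnb3 reached it in H3K4me1 alone. Sema4c, Sema6b, Sema7a, Ntn3 and Ntn5 reached it in all 3 marks. H3K27me3 and H2AK119ub shared 28 members, of 36 for H3K27me3 and 34 for H2AK119ub.

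**Figure D2:**
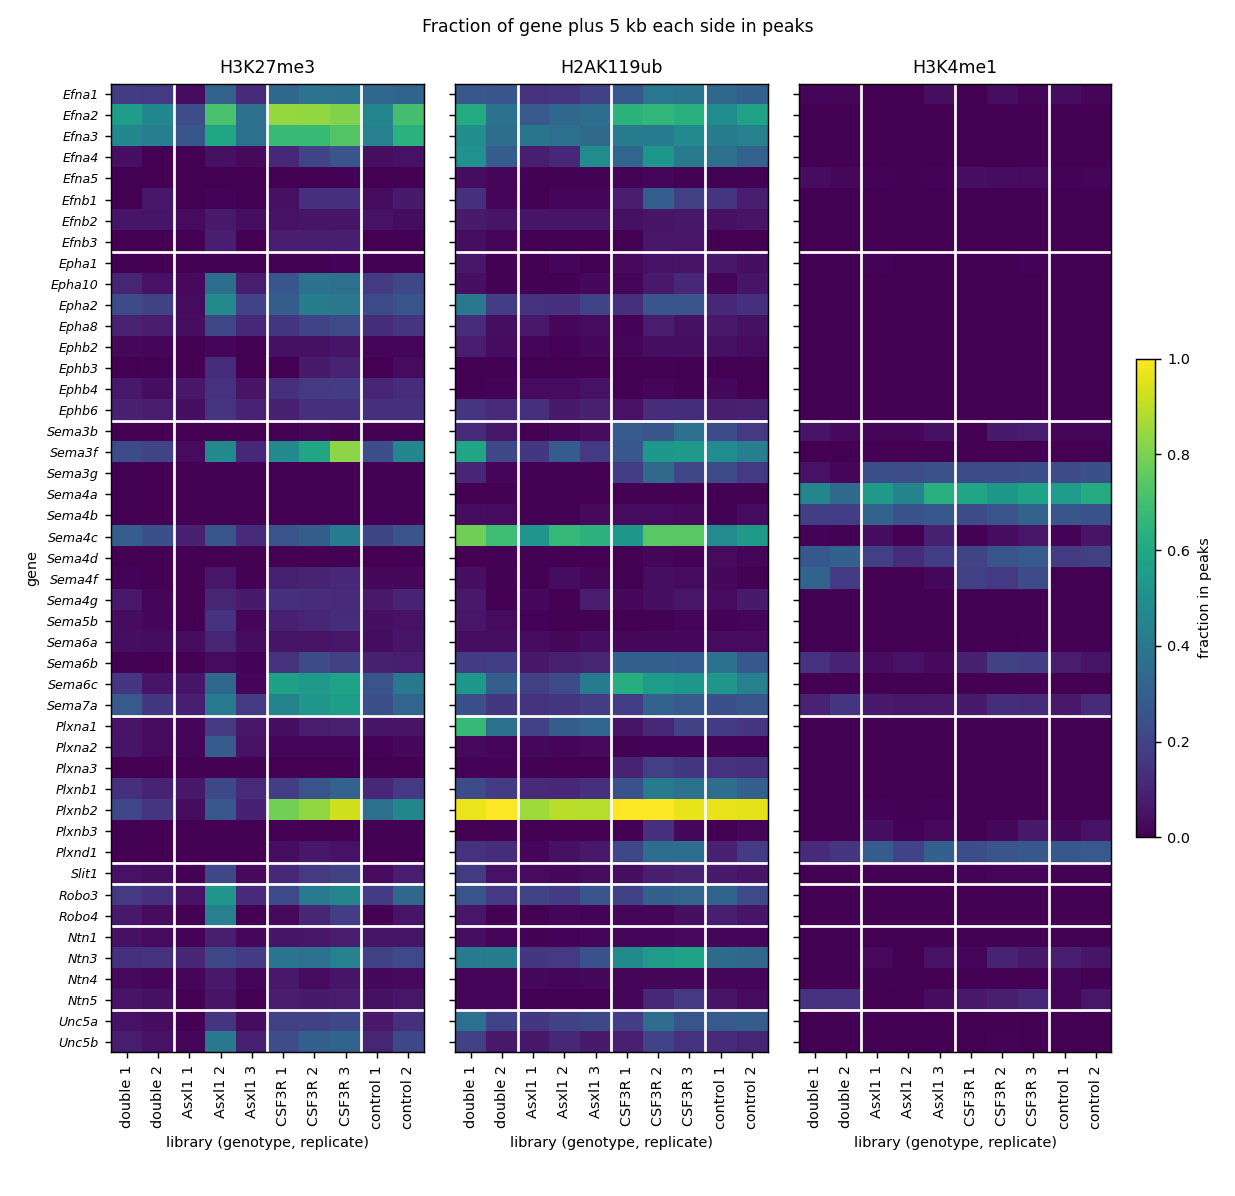
Fraction of gene plus 5 kb each side in peaks (colour, 0 to 1) for the 46 members that reached a mean fraction of 0.02 in at least 1 mark, by library (columns, genotype and replicate) and family (rows, parted by white lines). H3K27me3 and H2AK119ub fill many of the same rows, Plxnb2 is covered by H2AK119ub in every library, and H3K4me1 is held by a few semaphorins and Plxnd1.

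Among ligands, Efna2 carried the broadest H3K27me3. Its fractions were 0.560 and 0.465 in double cells, 0.236, 0.714 and 0.370 in Asxl1 guide cells, 0.840, 0.838 and 0.809 in CSF3R cells, and 0.455 and 0.704 in control cells. The CSF3R libraries lay above all others and held it as 1 peak of 16.6 to 17.25 kb. Efna3, another A-class ephrin, averaged 0.528 and Sema3f, a secreted semaphorin, 0.365. For receptors the highest H3K27me3 means were 0.414 at Plxnb2, which is a receptor for class 4 semaphorins, 0.273 at Epha2 and 0.260 at Robo3. Robo4, the Robo of blood vessel cells, averaged 0.0904, but its values ran from 0 in 3 libraries to 0.434 in replicate 2 of the Asxl1 guide, and it shares 7.98 kb of its window with Robo3.

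H2AK119ub was broadest on Plxnb2, at a mean fraction of 0.949, followed by Sema4c (0.635), Efna2 (0.498), Sema6c (0.433) and Efna3 (0.413). At Plxnb2 it filled 0.970 and 1 of the window in double cells, 0.855, 0.892 and 0.887 in Asxl1 guide cells, 1, 1 and 0.962 in CSF3R cells, and 0.967 and 0.958 in control cells. The 3 Asxl1 guide libraries were the lowest, with no overlap with any other genotype. Both Polycomb marks were centred on the starts of the genes. Within 1 kb of the start, H3K27me3 covered 39.6 to 42.4% of the members in double cells, 21.8 to 58.2% in Asxl1 guide cells, 53.5 to 60.5% in CSF3R cells and 41.1 to 48.0% in control cells. Over all genes these values were 3.6 to 14.0%. H2AK119ub covered 34.0 to 49.4% there, against 4.91 to 11.1% over all genes, and H3K4me1 2.07 to 3.66%, against 1.16 to 2.51%.

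**Figure D3:**
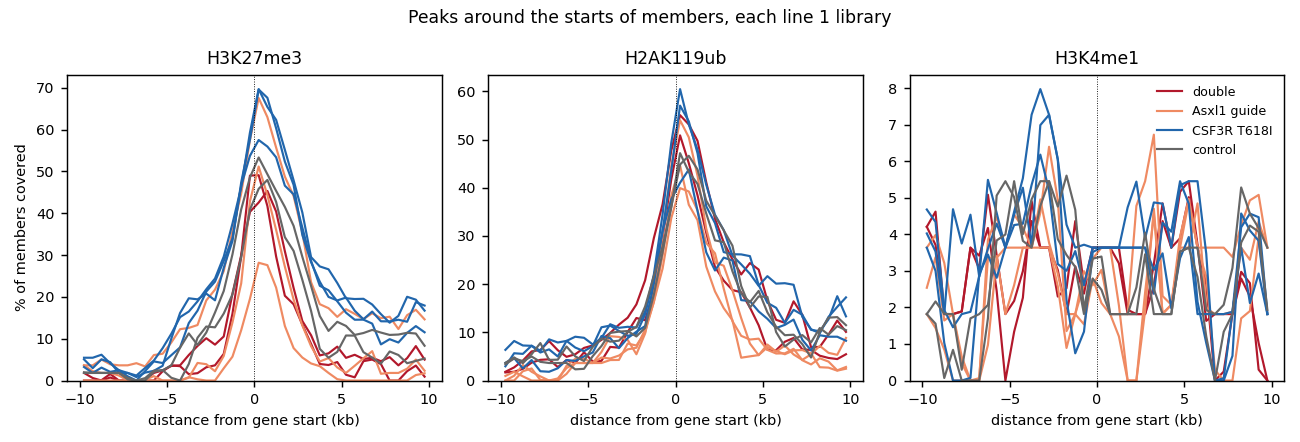
Percent of the 55 members with a placed start that were covered by peaks in 0.5 kb bins (vertical axis) by distance from the start (horizontal axis, kb), 1 line for each library. H3K27me3 and H2AK119ub peak at the start, the CSF3R lines and that of Asxl1 guide replicate 2 lie above most others for H3K27me3, and H3K4me1 shows no peak at 0.

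The H3K27me3 of double cells reached less far from the start than that of CSF3R cells. At 9 to 10 kb from the start it covered 1.73 to 3.31% of the members in double cells and 7.41 to 11.9% in CSF3R cells. All genes showed the same order at that distance, with 0.910 to 1.28% in double cells and 2.35 to 3.18% in CSF3R cells. Of the H3K27me3 bases on members, a median of 65.4% lay inside H2AK119ub peaks in double cells, 56.7% in Asxl1 guide cells, 49.0% in CSF3R cells and 55.8% in control cells, over pairs of libraries. The pairs ranged from 52.0 to 77.2% in double cells, 24.1 to 83.1% in Asxl1 guide cells, 37.1 to 53.4% in CSF3R cells and 50.01 to 60.3% in control cells. Without H3K27me3 replicate 2 of the Asxl1 guide, an alternative chosen after seeing the data, the Asxl1 guide median was 69.8%, above that of double cells. The medians over all 10 libraries ran higher than the 53.5, 44.4, 32.8 and 41.7% of all peaks in the same order of genotypes.

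Double cells had less H3K27me3 than CSF3R cells on 34 of the 36 members tested, and every double library lay below every CSF3R library for 28 of them. All genes did so for 76.3% of 4248, near the share of the members, and the median difference in fraction was -0.107 over the members and -0.0781 over all genes. By limma, a linear model with moderated variances fitted over all genes tested and adjusted over them by Benjamini-Hochberg, 6 members fell at an adjusted p under 0.05 and none rose, where 9.89% of all genes fell and 0.0942% rose. They were Plxnb2, Sema6b, Ntn3, Sema6c, Efna4 and Sema4f: a plexin, a transmembrane class 6 pair, a netrin, an ephrin and a class 4 semaphorin. None of the 7 Eph, 2 Robo, 1 Slit and 2 Unc5 genes tested was among them, too few genes to tell from the 9.89% of all genes. Ephb4, the receptor of Efnb2, differed by -0.106 ± 0.0306 (SE, adjusted p = 0.0639), and Efnb2 by 0.00123 ± 0.0191 (adjusted p = 0.966). Epha2, Ephb2, Unc5b, Ntn1 and Sema7a had adjusted p of 0.304, 0.243, 0.161, 0.408 and 0.0779.

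Plxnb2 (chr15:89155546-89182018) showed the widest change. H3K27me3 filled 0.211 and 0.151 of its window in double cells, 0.0329, 0.273 and 0.0905 in Asxl1 guide cells, 0.786, 0.838 and 0.928 in CSF3R cells, and 0.368 and 0.459 in control cells. The CSF3R libraries were above all others and both genotypes with the guide lay below both controls. The difference of double from CSF3R cells was -0.670 ± 0.0740 (SE, limma adjusted p = 0.00707). The widest peak reaching the window was 3.05 and 2.1 kb in the double libraries, 1.2, 16 and 2.85 kb in the Asxl1 guide libraries, 27.9, 23.1 and 54.45 kb in the CSF3R libraries, and 12.6 and 12.75 kb in the controls. The 16 kb peak, in Asxl1 guide replicate 2, was wider than those of both controls. It and the widest control peaks began 29.99 to 30.24 kb after the start, past the gene's 3′ end at 25.24 kb. Over the gene itself the widest peaks were 4.7 and 11.7 kb in the controls and 4 kb in Asxl1 guide replicate 2. The 27.9 kb peak of CSF3R replicate 1 ran from 21.44 to 49.34 kb. H2AK119ub still filled at least 0.970 of the window in double cells and at least 0.962 in CSF3R cells, while the H3K27me3 of both double libraries was split into 8 peaks. It formed 6 and 5 peaks in the controls, 1, 7 and 2 in the Asxl1 guide libraries, and 4, 3 and 1 in the CSF3R libraries. The window also holds Dennd6b. An IgG peak covers 0.0740 of this window. Leaving out peaks that overlap IgG peaks removes the wide CSF3R peaks whole, and the difference was then 0.119 (adjusted p = 0.176).

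Sema6b (chr17:56123085-56140343), a transmembrane semaphorin, had no H3K27me3 in either double library. It had 0, 0.0275 and 0.0110 in Asxl1 guide cells, 0.147, 0.227 and 0.191 in CSF3R cells, and 0.0917 and 0.0770 in control cells. Each genotype with the guide lay below each without it, and double cells differed from CSF3R cells by -0.188 ± 0.0258 (adjusted p = 0.0112). Its window also holds Lrg1, and it reached the testing level for H3K27me3 only through the libraries without the guide. Sema6b was not among the genes tested for H3K27me3 with no flank or without IgG-overlapping peaks, so its calls could not be checked there. Ntn3 (chr17:24203831-24209387), a small netrin whose window holds Tbc1d24, had 0.135 and 0.141 in double cells, 0.106, 0.215 and 0.177 in Asxl1 guide cells, 0.382, 0.366 and 0.434 in CSF3R cells, and 0.193 and 0.222 in control cells. Only the CSF3R libraries stood clear of the rest, by -0.256 ± 0.0353 for double against CSF3R cells (adjusted p = 0.0112). Ntn3 was likewise not among the genes tested for H3K27me3 without IgG-overlapping peaks. Sema6c differed by -0.456 ± 0.0940 (adjusted p = 0.0303), Efna4 by -0.173 ± 0.0423 (0.0451) and Sema4f by -0.0968 ± 0.0242 (0.0476). These 6 calls rest on few libraries: without either double library no member was called, without CSF3R replicate 2 or 3 or either control library 3 were, and without Asxl1 guide replicate 2, which stood apart, 21 were.

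Against control cells, CSF3R cells had more H3K27me3 on 35 of 36 members, and 26 had every CSF3R library above both controls (65.3% of all genes). Plxnb2, at 0.851 ± 0.0721 (SD, n = 3) in CSF3R cells and 0.413 ± 0.0649 (n = 2) in control cells, rose by 0.437 ± 0.0740 (SE, adjusted p = 0.0385). Ntn3 rose by 0.187 ± 0.0353 (adjusted p = 0.0451). These were the 2 members called, where 2.73% of all genes rose and none fell. Both calls depended on the libraries used: none was left without CSF3R replicate 2 or 3, Asxl1 guide replicate 3, either double library or either control library, and 12 were called without Asxl1 guide replicate 2. The Asxl1 guide alone gave no called member against control cells and none of 4248 genes (150 genes had an unadjusted p under 0.05, 3 of them members). Plxnb2 had the smallest p there, at -0.281 ± 0.0740 (adjusted p = 1), and without Asxl1 guide replicate 2 there were 3 members called. Double against Asxl1 guide cells also gave no called gene, with 75 genes and no member under an unadjusted p of 0.05, and Sema4c had the smallest p among members (0.113 ± 0.0635, adjusted p = 1).

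Averaged over both receptor backgrounds, H3K27me3 was lower with the guide on 33 of 36 members. All genes shifted the same way, with a median difference of -0.0405, against -0.0640 over the members. The members called lower numbered 4: Plxnb2 (-0.475 ± 0.0523, adjusted p = 0.00993), Sema6b (-0.130 ± 0.0183, 0.0170), Ntn3 (-0.149 ± 0.0250, 0.0255) and Sema6c (-0.327 ± 0.0664, 0.0386). Of all genes 4.83% were called lower and 0.0235% higher. The number was 26 without Asxl1 guide replicate 2, 0 without control replicate 2 or either double library, 1 without Asxl1 guide replicate 3, CSF3R replicate 3 or control replicate 1, and 2 without CSF3R replicate 2. The guide's effect was not shown to differ between the receptor backgrounds for any member, and 0.0235% of all genes were called for it, all lower. The interaction was -0.215 ± 0.0499 at Ntn3 (adjusted p = 0.281) and -0.388 ± 0.105 at Plxnb2 (adjusted p = 0.344).

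H2AK119ub fell on several members with the Asxl1 guide. In Asxl1 guide against control cells 28 of 34 members were lower, 21 without overlap between the groups (52.2% of all genes), and the median difference was -0.0620 against -0.0346 over all genes. The 5 called lower were Sema6b, Plxna3, Sema3b, Plxnb1 and Efna1, and none was called higher, where 5.5% of all genes were called lower and 0.28% higher. At Sema6b the fractions were 0.176 and 0.183 in double cells, 0.0642, 0.0880 and 0.105 in Asxl1 guide cells, 0.310, 0.312 and 0.297 in CSF3R cells, and 0.376 and 0.277 in control cells. All 5 libraries with the guide lay below all 5 without it. Asxl1 guide cells differed from control cells by -0.241 ± 0.0279 (SE, adjusted p = 0.0102) and double from CSF3R cells by -0.126 ± 0.0279 (adjusted p = 0.0385). Without peaks that overlap IgG peaks these differences were 0.0721 and 0.00703 and neither was called, and an IgG peak covers 0.0548 of this window.

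Sema3b (chr9:107597674-107609241), a secreted semaphorin whose window holds Ifrd2, Lsmem2 and Gnai2, had 0.123 and 0.0649 in double cells, 0, 0.0162 and 0.0301 in Asxl1 guide cells, 0.283, 0.267 and 0.371 in CSF3R cells, and 0.230 and 0.167 in control cells. It had no IgG peak, and guide libraries again lay below all others. The difference was -0.183 ± 0.0355 for the guide alone against control (adjusted p = 0.0318) and -0.213 ± 0.0355 for double against CSF3R cells (adjusted p = 0.0168). Plxna3 (chrX:74328290-74344689), a receptor that works with neuropilins for class 3 semaphorins, had 0.0114 and 0.00947 in double cells and 0.00758, 0 and 0 in Asxl1 guide cells, against 0.0947, 0.191 and 0.163 in CSF3R cells and 0.144 and 0.134 in control cells. The mark was thus all but missing in the 5 guide libraries, by -0.137 ± 0.0262 for the guide alone (adjusted p = 0.0310) and -0.139 ± 0.0262 for double against CSF3R cells (adjusted p = 0.0249). Plxna3 reached the testing level for H2AK119ub only through the libraries without the guide, those against which it was then called lower. No H3K27me3 peak touched Plxna3 in any library. In Asxl1 guide against control cells the count of 5 was 0 without Asxl1 guide replicate 1, 1 without Asxl1 guide replicate 2 or 3 or either control, 3 without CSF3R replicate 3 and 8 without CSF3R replicate 1. With covered length as a covariate it was 1.

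Averaged over both backgrounds the guide gave 9 members lower in H2AK119ub and 1 higher, where 15.9% of all genes were lower and 2.93% higher. The 9 were Sema6b, Sema3b, Plxna3, Sema3g, Plxnb1, Ntn3, Efna1, Plxnd1 and Efna2, which are ligands and receptors alike. Sema6b had a difference of -0.184 ± 0.0197 (adjusted p = 0.00283), Sema3b of -0.198 ± 0.0251 (0.00389) and Plxna3 of -0.138 ± 0.0185 (0.00467). At Sema3g, a secreted semaphorin, H2AK119ub was 0.107 and 0.0178 in double cells, 0 in all 3 Asxl1 guide libraries, 0.185, 0.347 and 0.211 in CSF3R cells, and 0.225 and 0.171 in control cells. The guide libraries were all lower than the rest, by -0.192 ± 0.0341 on average (adjusted p = 0.0110). No member had a called interaction, and the smallest p was at Sema6b (0.115 ± 0.0395, adjusted p = 0.368).

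**Figure D4:**
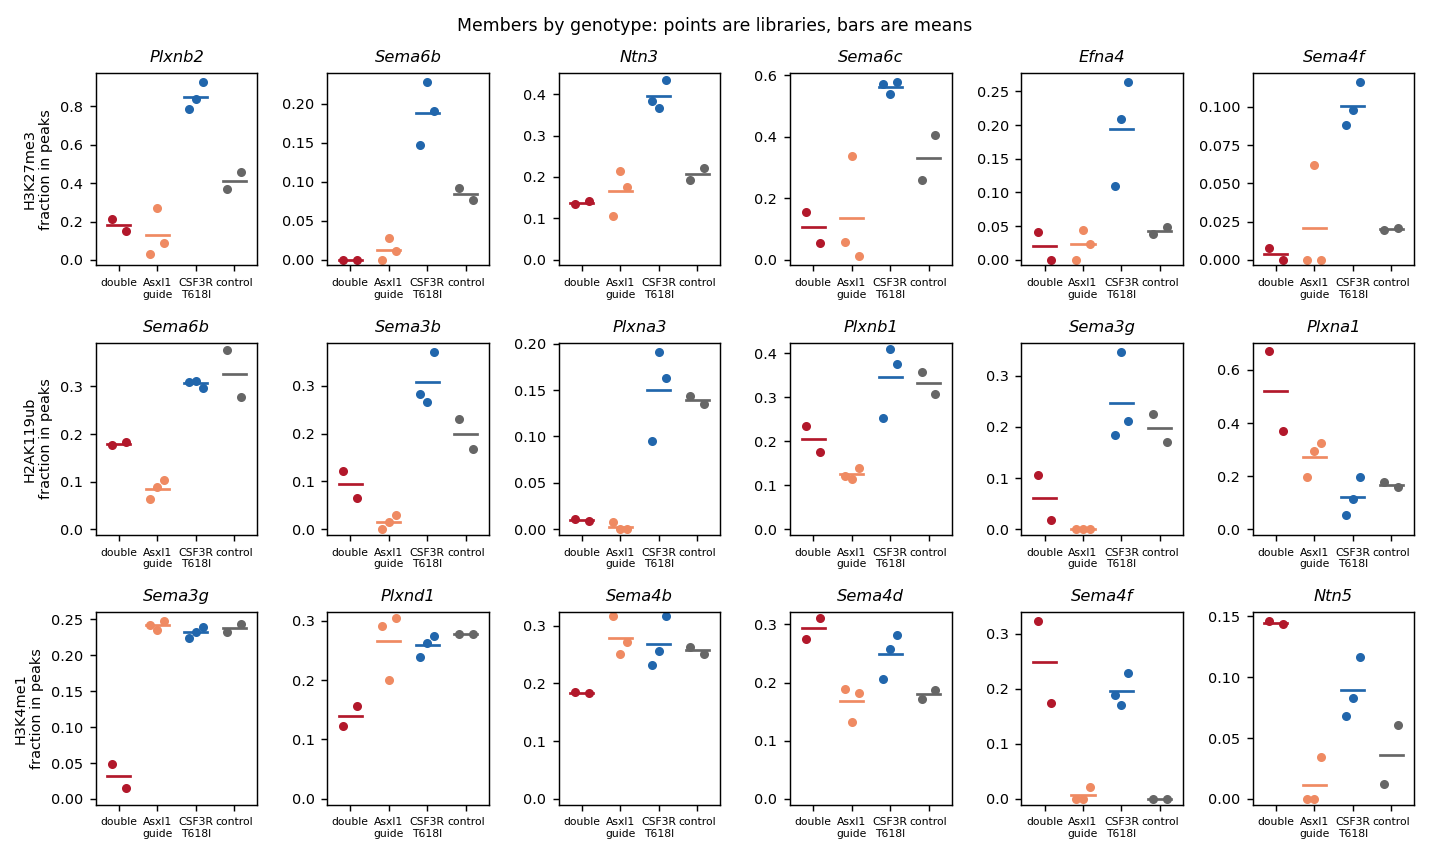
Fraction of gene plus 5 kb each side in peaks (vertical axis) by genotype (double, Asxl1 guide, CSF3R T618I, control) for 6 members per mark, with a point for each library and a bar for the mean. Plxnb2 H3K27me3 is highest in the 3 CSF3R libraries, H2AK119ub of Plxna3 and Sema3g is near 0 in Asxl1 guide libraries, and H3K4me1 at Sema3g is low in the 2 double libraries alone.

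Plxna1 (chr6:89316313-89362613), also a receptor for class 3 semaphorins, went the other way. H2AK119ub filled 0.671 and 0.369 of it in double cells and 0.196, 0.294 and 0.327 in Asxl1 guide cells, against 0.0559, 0.113 and 0.196 in CSF3R cells and 0.178 and 0.159 in control cells. Double libraries lay above all others, with the higher of them the library with the longest H2AK119ub list (39.1 Mb). The difference of double from CSF3R cells was 0.399 ± 0.0838 (SE, adjusted p = 0.0330), and of guide from non-targeting libraries on average 0.251 ± 0.0593 (adjusted p = 0.0260). An IgG peak covers 0.218 of this window, the largest such share of any member, and without IgG-overlapping peaks the first call was lost. That call was also lost with the 10 kb window at the start, without a filter and with the replicate number as a block. The same held without CSF3R replicate 2 or 3 or any 1 Asxl1 guide library. In double against CSF3R cells 1 member rose and 3 fell (Sema3b, Plxna3 and Sema6b), where 2.8% of all genes rose and 4.77% fell. This count of 4 was 10 without CSF3R replicate 1, 1 without CSF3R replicate 2 or 3 or any Asxl1 guide library, 2 without double replicate 1, and 12 with covered length as a covariate.

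Against the guide alone, double cells had more H2AK119ub on 33 of 34 members, with 16 free of overlap (46.9% of all genes). The 2 called were Ntn3, at 0.416 ± 0.0114 (SD, n = 2) in double and 0.194 ± 0.0521 (n = 3) in Asxl1 guide cells, and Plxnb2, at 0.985 ± 0.0213 and 0.878 ± 0.0205 in the same order. Their adjusted p were 0.0155 and 0.0216, where 7.98% of all genes were called higher and 0.129% lower. No member was left without Asxl1 guide replicate 1 or 2 or double replicate 1, 1 was without Asxl1 guide replicate 3, and 9 were called without double replicate 2. CSF3R T618I alone changed H2AK119ub on no member at the threshold (0.388% of all genes rose, 0.108% fell, and 3 members had an unadjusted p under 0.05), and Ntn3 had the smallest p (0.195 ± 0.0366, adjusted p = 0.0812). Without CSF3R replicate 1 there were 3 members called.

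H3K4me1 was low at Sema3g (chr14:31217873-31230352) in double cells. Its fraction was 0.0489 and 0.0156 in double cells, 0.241, 0.235 and 0.248 in Asxl1 guide cells, 0.224, 0.233 and 0.239 in CSF3R cells, and 0.233 and 0.244 in control cells. The other 8 libraries lay between 0.224 and 0.248, and both double libraries stood below them. In each of the 8 the mark formed 1 peak upstream, from between -6.27 and -5.77 kb to between -2.12 and -1.87 kb of the start, and 1 inside the gene near its 3′ end, from between 8.83 and 9.03 kb to between 11.2 and 11.4 kb. Double replicate 1 kept pieces of 0.2 and 0.9 kb of these and double replicate 2 a single piece of 0.35 kb. The promoter printed above lies between the peaks and held no H3K4me1. Double cells differed from CSF3R cells by -0.2 ± 0.0134 (SE, limma adjusted p = 1.95e-04) and from Asxl1 guide cells by -0.209 ± 0.0134 (adjusted p = 7.15e-05).

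The guide's effect at Sema3g differed between receptor backgrounds. The interaction was -0.203 ± 0.0190 (adjusted p = 0.00253), and Sema3g was the 1 member called for it, where 0.41% of all genes were called lower and 0.319% higher. Averaged over backgrounds the guide's effect was -0.0981 ± 0.00951 (adjusted p = 0.00201), also the 1 member called, where 5.49% of all genes were lower and 0.774% higher. This average describes neither background, since Asxl1 guide cells differed from control cells by only 0.00334 ± 0.0134. The interaction stayed under 0.05 without any 1 library (0.00304 to 0.0287). It missed it with a 2 kb flank (adjusted p = 0.0812) or none (0.065), windows that leave out nearly all or all of the upstream peak.

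**Figure D5:**
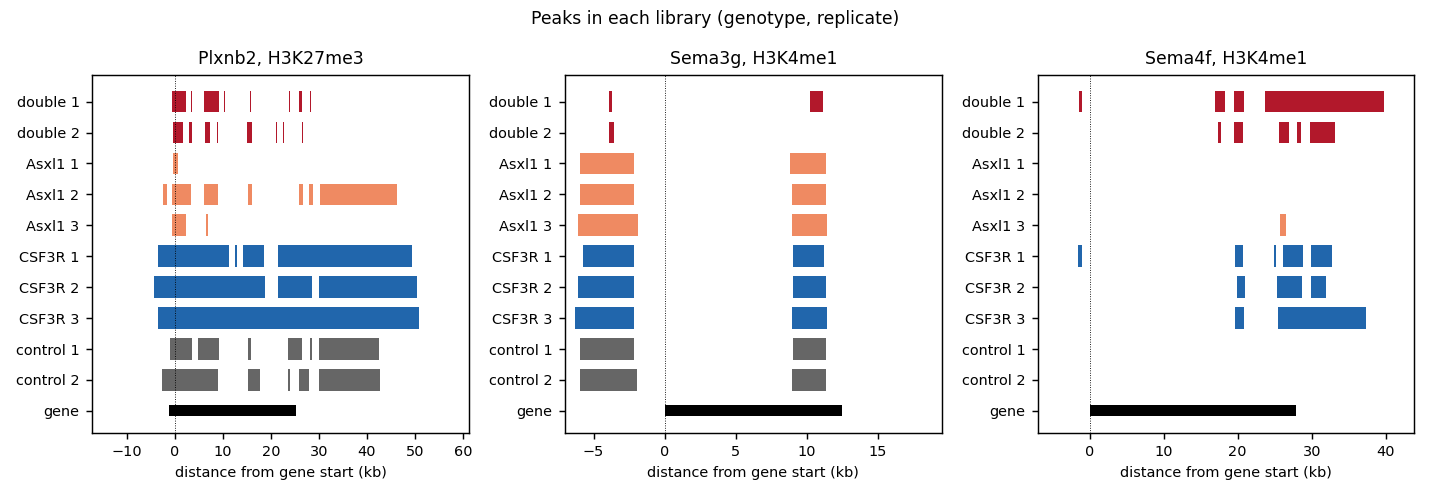
Peaks in each library (rows, genotype and replicate) by distance from the gene's start (horizontal axis, kb), with the gene as a black bar, for H3K27me3 at Plxnb2 and H3K4me1 at Sema3g and Sema4f. Peaks over the Plxnb2 gene itself are short in double and Asxl1 guide libraries and widest in CSF3R libraries, both Sema3g peaks are small or missing in the double libraries alone, and the Sema4f peaks appear in double and CSF3R libraries.

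At Sema4f (chr6:82911884-82939769), a class 4 semaphorin, H3K4me1 was high in cells with CSF3R T618I. Its fraction was 0.322 and 0.175 in double cells, 0, 0 and 0.0224 in Asxl1 guide cells, 0.189, 0.170 and 0.229 in CSF3R cells, and 0 in both control libraries. Every library with the receptor was above every library without it. Sema4f reached the testing level for H3K4me1 only through the libraries with the receptor, the same ones in which it was then called higher. The peaks lay in the last part of the gene and past its 3′ end, from 16.9 to 39.8 kb after the start in the double libraries and from 19.6 to 37.4 kb in the CSF3R libraries, apart from a short peak before the start in 1 library of each. CSF3R cells differed from control cells by 0.196 ± 0.0379 (adjusted p = 0.0174), the 1 member called of 14, where 6.87% of all genes rose and 1.84% fell. Double cells differed from Asxl1 guide cells by 0.241 ± 0.0379 (adjusted p = 0.00624). The first call was lost without CSF3R replicate 3 or either control library, and with a 2 kb flank or none, and 2 members were called without CSF3R replicate 1.

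Plxnd1 (chr6:115954811-115995339), the receptor of Sema3e, had 0.123 and 0.156 in double cells, 0.291, 0.2 and 0.305 in Asxl1 guide cells, 0.238, 0.262 and 0.274 in CSF3R cells, and 0.277 and 0.278 in control cells. Double libraries were below all others, and the mark's main peak, inside the gene, was 4.35 and 5.35 kb wide there, against 8.25 to 12.9 kb in Asxl1 guide cells, 11.75 to 12.95 kb in CSF3R cells and 12.75 and 13 kb in control cells. Double cells differed from CSF3R cells by -0.119 ± 0.0298 (adjusted p = 0.0464) and from Asxl1 guide cells by -0.126 ± 0.0298 (adjusted p = 0.0256). Plxnd1 and Sema3g were the 2 members lower in double than CSF3R cells, where 7.35% of all genes fell and 1.53% rose. The Plxnd1 call was lost without any 1 library except Asxl1 guide replicate 2, and held in 4 of 21 alternatives (adjusted p 0.00824 to 0.690). Without IgG-overlapping peaks the difference was 0.0323.

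Of the class 4 semaphorins, Sema4a carried the most H3K4me1. Its fractions were 0.455 and 0.345 in double cells, 0.539, 0.451 and 0.631 in Asxl1 guide cells, 0.593, 0.535 and 0.581 in CSF3R cells, and 0.555 and 0.616 in control cells. Double libraries overlapped those of the Asxl1 guide and lay below the rest, and the difference from CSF3R cells was -0.170 ± 0.0526 (adjusted p = 0.0870). Sema4d, a ligand of plexin B1 that acts in lymphocytes, had 0.275 and 0.312 in double cells, 0.189, 0.132 and 0.182 in Asxl1 guide cells, 0.207, 0.259 and 0.283 in CSF3R cells, and 0.173 and 0.188 in control cells. Both backgrounds with the receptor lay above those without it. Double differed from Asxl1 guide cells by 0.126 ± 0.0261 (adjusted p = 0.0162), and CSF3R from control cells by 0.0691 ± 0.0261 (adjusted p = 0.161). No H3K27me3 peak touched Sema4a or Sema4d in any library.

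In double against Asxl1 guide cells 3 members rose and 3 fell in H3K4me1, where 8.42% of all genes rose and 7.31% fell. Ntn5 rose by 0.134 ± 0.0206 (adjusted p = 0.00593), Sema4f and Sema4d as given above, while Sema3g, Plxnd1 and Sema4b (-0.0954 ± 0.0269, adjusted p = 0.0478) fell. At Ntn5 the peaks lay before the start, from -4.07 to -1.07 kb, in a window that also holds Sec1 and Car11. Without either double library 3 members were called. The Sema4b call held in 7 of 21 alternatives and was lost without either control, either double library, Asxl1 guide replicate 1 or 3, or CSF3R replicate 2. That of Plxnd1 held in 15 of 21 and was lost without either double library or Asxl1 guide replicate 1 or 3. The Plxnd1 call was also lost without IgG-overlapping peaks and with the replicate number as a block. The guide alone against control cells gave no called member for H3K4me1, where 0.0455% of all genes were called, all lower. No member and 288 of 4393 genes had an unadjusted p under 0.05, and Ntn3 had the smallest p of the members (-0.0461 ± 0.0250, adjusted p = 0.819).

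Other genes of axon guidance were taken from a list of 49 outside the set that holds co-receptors, adhesion proteins and the kinases and GTPases downstream. Of these, 18 were tested for H3K27me3, 18 for H2AK119ub and 17 for H3K4me1, and they gave 3 calls over the 18 comparisons. Flrt1, an adhesion protein of the FLRT family, fell in H3K27me3 in double against CSF3R cells (-0.0885 ± 0.0221, adjusted p = 0.0476). L1cam, a neural adhesion protein, fell in H2AK119ub with the guide on average (-0.0607 ± 0.0174, adjusted p = 0.0468). Rac1, a GTPase of the actin skeleton, rose in H3K4me1 in CSF3R against control cells (0.146 ± 0.0255, adjusted p = 0.0121). Of all genes, 9.89%, 15.9% and 6.87% were called in the same comparisons and directions, in that order.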

How the data were processed

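The authors deposited, for each library, peak positions in bp (chromosome, start and end), values of a kind other than counts or signal, and a merged list from 2 IgG libraries. Per the submitters' processing notes, Bowtie2 2.4.1, deepTools 3.5 and mm10 were used; the peak caller is not given in the sources used here. Peaks were 200 to 90300 bp wide. Genes and promoters came from RefSeq GRCm38.p6. From the lists, the fraction of each gene plus 5 kb each side in peaks was computed per library. Genes with a mean of at least 0.02 over a mark's 10 libraries went into limma 3.58.1 under R 4.3.3 (1 mean per genotype, 2-sided, Benjamini-Hochberg over all genes tested), checked on simulated data. No count test was possible, and depth is unknown. Distances from starts used the 55 members with a RefSeq promoter. Named genes were the 5 highest means per mark, up to 3 calls in each direction per comparison by p (the 2 smallest p where none), and 12 preset members. The members, lists and rules were chosen with earlier results of these data known. The alternatives were 12 settings and leaving out each of 10 libraries per mark. The result for 1 marker gene is not reported here. Python 3.11.15 with numpy 2.4.6, pandas 2.3.3 and matplotlib 3.10.9 was used.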

Additional observations from a re-analysis of the deposited data

Results flagged for a closer look

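H3K4me1 at Sema3g was listed because the guide's effect differed between the receptor backgrounds by the test of that difference itself. The guide effect with CSF3R T618I minus that without it was -0.203 in fraction (limma adjusted p = 0.00253). With the receptor, double cells averaged 0.0323 ± 0.0236 (SD, n = 2) and CSF3R cells 0.232 ± 0.00781 (n = 3). Without it, Asxl1 guide cells averaged 0.241 ± 0.00667 (n = 3) and control cells 0.238 ± 0.00786 (n = 2). At the same gene H2AK119ub was 0 in every Asxl1 guide library, and no H3K27me3 peak touched it in any library.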

How the results depend on the processing

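Of 396 counts of called members under the alternatives, 276 stayed within 1.5 times the count given above and 120 moved. For the called and named members 294 of 1170 differences lost their call, 6 gained one and 10 reversed. All 10 reversals came with removal of every peak that overlaps an IgG peak, which takes wide peaks out whole. The fraction differences then became, for Plxnb2 H3K27me3, 0.119 (double against CSF3R), -0.149 (CSF3R against control) and 0.0320 (average guide effect). For Sema6b H2AK119ub they became 0.0721 (Asxl1 guide against control), 0.00703 (double against CSF3R) and 0.0396 (average guide effect). For Efna1 H2AK119ub they became 0.0412 (Asxl1 guide against control) and 0.0137 (average guide effect). For Ntn3 H2AK119ub (double against Asxl1 guide) it became -0.00857, and for Plxnd1 H3K4me1 (double against CSF3R) 0.0323. Under that setting the called members numbered 1 for H3K27me3 double against CSF3R, 0 for CSF3R against control and 1 for the guide average, 3 for H2AK119ub Asxl1 guide against control, 0 for double against Asxl1 guide and 6 for the guide average, and 1 for H3K4me1 double against CSF3R. With any overlap in place of the fraction, H2AK119ub gave 2 for Asxl1 guide against control, the guide average and the interaction, and 0 for double against CSF3R. Every H3K27me3 and H3K4me1 comparison with calls gave 0 there. On the log2(fraction + 0.01) scale H3K27me3 gave 1 for double against CSF3R, 0 for CSF3R against control and 2 for the guide average, H2AK119ub 2 for double against CSF3R and 4 for double against Asxl1 guide, and H3K4me1 2 for CSF3R against control. With covered length as covariate H3K27me3 gave 12 for double against CSF3R, 9 for the guide average, 2 for Asxl1 guide against control and 2 for the interaction. H2AK119ub gave 12 for double against CSF3R, 1 for Asxl1 guide against control and 0 for double against Asxl1 guide, and H3K4me1 1 for double against CSF3R. A 2 kb flank gave 0 for H3K4me1 CSF3R against control and the interaction, and 1 for double against CSF3R. No flank gave 0 for the same first pair, 1 for H3K27me3 CSF3R against control, 2 for its guide average and 1 for H2AK119ub double against Asxl1 guide. The 10 kb window at the start gave 4 for H3K27me3 CSF3R against control, and 2 for H3K4me1 CSF3R against control and for its guide average. Without a filter there were 4 for H3K27me3 CSF3R against control, 1 for H2AK119ub Asxl1 guide against control, 3 for H3K4me1 CSF3R against control and 1 for double against CSF3R. A filter at 0.05 gave 1 for H3K27me3 CSF3R against control. Peaks of at least 500 bp gave 3 for H2AK119ub Asxl1 guide against control and 1 for H3K4me1 double against CSF3R, and a variance trend gave 3 and 1 for the same pair and 1 for H3K27me3 CSF3R against control. The causes were not tested.

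Leaving out 1 library at a time, H3K27me3 ranged over 0 to 3 called members for Asxl1 guide against control, 0 to 12 for CSF3R against control, 0 to 21 for double against CSF3R and 0 to 26 for the guide average. H2AK119ub ranged over 0 to 8, 0 to 3 and 1 to 10 for the same first 3 comparisons, 0 to 9 for double against Asxl1 guide, 7 to 13 for the guide average and 0 to 1 for the interaction. H3K4me1 ranged over 0 to 2 for CSF3R against control, 1 to 2 for double against CSF3R, 3 to 7 for double against Asxl1 guide, 1 to 2 for the guide average and 1 to 2 for the interaction. Where this left 1 library in a genotype, that library was assumed to vary like the others. With the replicate number as a block, H3K27me3 gave 1 for double against CSF3R, 0 for CSF3R against control and 1 for the guide average, and H2AK119ub gave 0 for Asxl1 guide against control, 0 for double against CSF3R and 1 for double against Asxl1 guide. H3K4me1 gave 4 for double against Asxl1 guide, without Plxnd1 and Sema4b, and 2 for double against CSF3R, without Plxnd1. Deviations of same-numbered libraries from their genotype means correlated at -0.449 to 0.396 in H3K27me3, -0.236 to 0.133 in H2AK119ub and -0.0969 to 0.406 in H3K4me1. The medians were -0.00727, 0.0363 and 0.211, against 0.0362, -0.0196 and -0.159 for libraries of different numbers. In H3K4me1 a shared number thus went with closer values, while the sample titles give only the number. As a hint from the data and not the design, 3 of 10 H3K27me3, 1 of 10 H2AK119ub and 9 of 10 H3K4me1 libraries correlated best with a library of their own number. Since depth is unknown, a missing peak cannot be told from a peak too weak to be called.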
